A study of Mus musculus with 16 samples.

Results

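Nuclear receptors, 37 genes of the family chosen by name and not by any measured change, are described here in brown adipose tissue (BAT) of mice that lack Gdf15 in thermogenic adipocytes. All 37 were found among the 49066 genes into which the transcripts of bulk RNA sequencing were summed. The 16 libraries came from BAT of C57BL6/J mice, with 4 mice in each combination of sex and genotype (WT or KO). KO mice (GDF15 BKO) carried Gdf15 floxed alleles in homozygosis and the transgene Tg(Ucp1-cre)1Evdr, so that Cre acts in cells that use the Ucp1 promoter and the other cells of the tissue keep the gene. The WT controls, described as littermates, had the same floxed alleles without Cre. Which mice shared a litter was not given in the sources used here. Every mouse was 18 weeks old and had eaten a high-fat diet with 60% of kcal from fat for 12 weeks, from 6 weeks of age. A subset of the study's mice was housed singly in metabolic chambers at thermoneutrality near the end of the diet, and whether the sequenced mice were among them was not stated. The time of day at which BAT was collected was not given in the sources used here. Abundance is in TPM, a measure of reads per length that sums to the same total in all libraries, so that levels can be set against each other between genes.

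Nuclear receptors are transcription factors that bind DNA as single units or pairs, and most are switched by a small lipid-soluble ligand. PPARs respond to fatty acids, LXRs to oxysterols, thyroid hormone receptors to triiodothyronine, RARs to retinoic acid and the steroid receptors to steroid hormones. RXRs are the shared partners of many of these. ERRs, NR4A receptors, COUP-TFs and testicular receptors are called orphans because no classical hormone is known for them, and REV-ERBs are repressors of the circadian clock. In brown fat, PPARγ is required for the adipocyte state, PPARα and the ERRs drive genes of fatty acid oxidation and mitochondria, thyroid hormone receptors act with adrenergic signals on Ucp1, and NR4A genes are induced within a short time of an adrenergic stimulus.

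Gdf15, the deleted gene, was 0.368 to 3.81 TPM in WT males and 0.0801 to 0.272 in KO males (p = 0.0286 in an exact two-sided permutation test, which cannot give less with 4 against 4). In females it was 0.0622 to 0.311 in WT and at most 0.0794 in KO mice, with the ranges overlapping (exact p = 0.0571). All 10 brown adipocyte markers had a mean of at least 1 TPM, with sums of 6172 to 12880 TPM. Skeletal muscle markers summed to between 73.8 and 4543 TPM and were over 1000 in 6 libraries, spread over all groups. Macrophage markers summed to 41.1 to 79.8 TPM in WT males and 104.0 to 153.8 in KO males, but overlapped in females (48.2 to 107.1 and 67.3 to 99.3). Endothelial markers summed to 150.5 to 218 TPM in WT females and 251 to 478 in KO females, but overlapped in males (160.4 to 298.6 and 249.1 to 283.9). Mural and smooth muscle markers were 121.3 to 143.2 TPM in WT and 156.8 to 260.9 in KO females, with overlap in males (114.3 to 180.5 and 170.9 to 213.4). Mitochondrially encoded transcripts held 34.5 to 59.8% of all TPM, and in female WT 4 a single transcript without a match in the annotation took 16.5%. TPM are shares of a sum, and over all tested genes the median log2 fold change, KO against WT, was 0.16 in males and 0.10 in females. Changes of members are read beside these medians.

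The family spanned a wide range of levels, with Pparg at the top and Pgr at the bottom. Over all 16 mice, 3 members had a mean of 50 TPM or more, 11 lay between 10 and 50, 15 between 1 and 10, and 8 were under 1. Pparg led at a mean of 139.7 TPM and ranked 505 among all genes. It exceeded Esrra, the next in order, in 16 of 16 mice. Esrra (68.7 TPM), Nr1d1 (52.9), Thra (47.9), Ppara (42.4), Nr1h3 (40.4), Nr1h2 (39.6) and Nr4a1 (39.1) followed. Within this stretch the order was not firm. Each exceeded its next neighbour in only 8 to 11 mice, apart from Nr4a1, which was above Rxrb in 6 of 16. Among the shared partners, Rxrb had a mean of 28.3 TPM and was above Rxrg (18.3) in every mouse, and Rxra had 15.3.

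**Figure D1:**
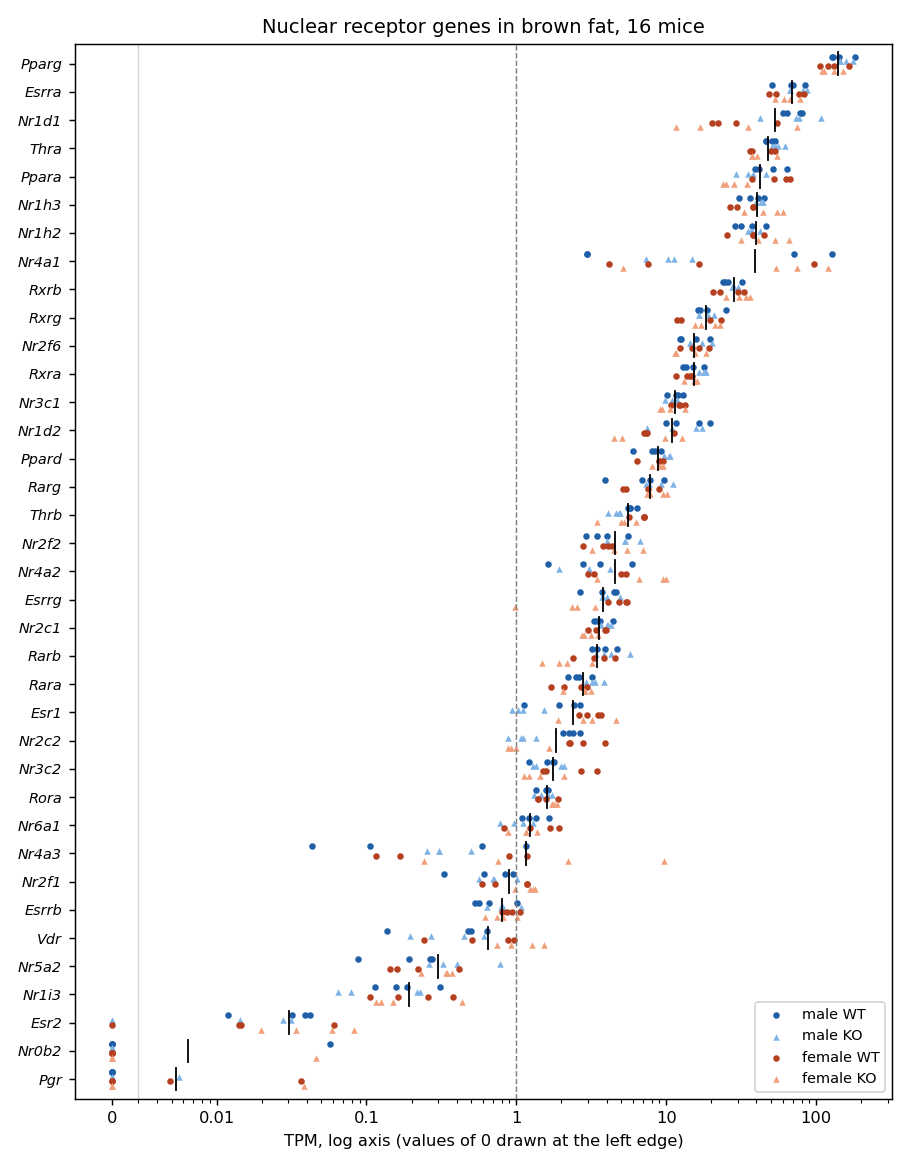
TPM of the 37 nuclear receptor genes (log axis) in 16 mice, ordered by the mean (black bar), with circles for WT, triangles for KO and values of 0 drawn at the left edge. The grey dashed line marks 1 TPM, above which 29 members have their mean, and Nr4a1, Nr4a3 and Nr1d1 spread far more widely than their neighbours.

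Spread between mice separated the members as clearly as their level did. Rora, the lipid-linked activator that opposes REV-ERBs, varied 1.44-fold between its lowest and highest mouse. Nr3c1, the glucocorticoid receptor, varied 1.47-fold and Rxra 1.58-fold. At the other end Nr4a1 varied 43.5-fold, Nr4a3 224-fold and Nr1d1 9.35-fold. Vdr (11.1-fold) and Nr5a2 (8.97-fold), both with means under 1 TPM, also varied widely. The coefficient of variation over the 16 mice was 11.2% for Rora, 16.5% for Pparg, 53.6% for Nr1d1 and 114% for Nr4a1. These figures mix genotype, sex and mouse, and are a description.

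The transcripts behind the leading members could be named. Pparg-201, which encodes 505 residues and has the length of PPARγ2, the form restricted to adipocytes, gave 59.4% of the Pparg TPM. Pparg-204, with 475 residues and the length of PPARγ1, gave 36.6%. The Pparg-204 share was 38.2% ± 5.80 (SD, n = 4) in WT and 36.4% ± 3.25 in KO males, and 36.1% ± 5.90 and 34.5% ± 8.04 in WT and KO females. Neither difference exceeded the spread between mice (exact permutation tests, p = 0.6 and p = 0.743). Thra-201, with 492 residues and the length of the α2 form that does not bind hormone, gave 59.4% of the Thra TPM. Thra-202, with 410 residues and the length of the hormone-binding α1 form, gave 26.3%. Thra and Nr1d1 lie on opposite strands and share 263 exonic bases, so reads from the overlap can be told apart only where counting used the strand, which was not stated. Ppara-202 and Ppara-201, which both encode 468 residues, gave 69.3% and 18.2% of Ppara.

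Within each sex no member passed the adjusted threshold, while over both sexes Nr2c2 and Ppara fell. In males 28 members had enough TPM to be tested with limma. In males 0 passed an adjusted p under 0.05, against 0.00821% of all genes (1 of 12177), and 4 had an unadjusted p under 0.05, which is 14.3% of those tested against 18.7% of all genes. Of these 4, Ppard was higher in KO (17.7% of all genes were) and Nr2c2, Thrb and Esr1 were lower. The 3 lower members stand beside a background of 1.07% of all genes (130 of 12177) that were lower at the same threshold. That background depends on the scale. With TPM rescaled by median-of-ratios factors, 877 of 12081 genes and 5 of 28 members were lower in males. In females 30 members were tested, 0 passed the adjusted threshold, as 0% of all genes did, and 6 had an unadjusted p under 0.05 (20% against 17.1%). Nr1h3 was higher in KO females (11.6% of all genes were), and Nr2c2, Ppara, Esrrg, Rarb and Thrb were lower, against 5.46% of all genes that were lower. KO and WT mice did not overlap for 3 members in males, where 10.2% of all genes did not. Ppard was the higher one (9.54% of all genes) and Nr2c2 and Thrb the lower ones (0.673%). In females the 3 members without overlap, Nr2c2, Ppara and Esrrg, were all lower (8.09% of all genes in either direction, 4.9% higher and 3.19% lower). For the mean KO effect over both sexes, 2 of 29 members passed the adjusted threshold against 2.95% of all genes, and 9 had an unadjusted p under 0.05 against 24% of all genes. Of the 9, 5 were higher (21.4% of all genes) and 4 lower (2.58%).

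Scaling mattered for the direction of the many small differences. The median log2 fold change of the members tested was 0.09 in males, -0.02 in females and 0.06 for the mean effect, below the medians of all genes of 0.16, 0.10 and 0.13. Of all genes with an unadjusted p under 0.05, 94.3% were higher in KO in males, 68.1% in females and 89.2% for the mean effect. With TPM rescaled by median-of-ratios factors these shares were 53.5%, 52.6% and 56.0%. At the deposited scale 17 of 28 members were above 0 in males (79.9% of all genes), 15 of 30 in females (62.7%) and 16 of 29 for the mean effect (75.5%). After rescaling these counts were 7 of 28, 14 of 30 and 11 of 29, with medians of all genes of 0.0045, 0.013 and 0.0069. With that rescaling the 9 members of the mean effect, 5 of them higher, became 10 with 1 higher and 9 lower. Of the 12195 genes tested in that setting, 1416 were higher and 1114 lower at the same threshold, so the share of all genes that were lower rose too. In females 6 of 30 members were lower after rescaling, beside 1163 of 12189 genes. Small increases named here therefore depend on the scaling. Nr2c2, Ppara, Thrb and Esrrg were lower for the mean effect under every scaling.

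**Figure D2:**
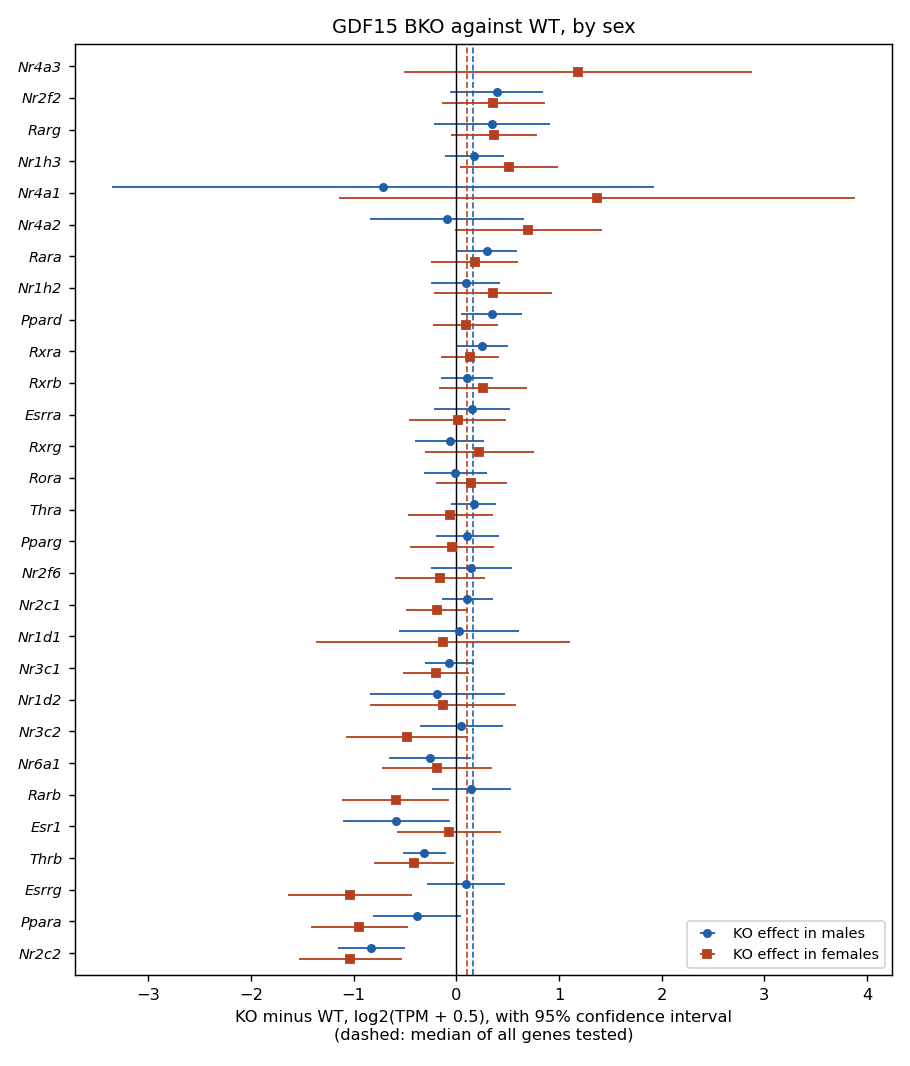
Difference between KO and WT mice on the log2(TPM + 0.5) scale, with its 95% confidence interval, for the 29 members tested over both sexes, in males (circles) and females (squares). Nr4a3 had too little TPM to be tested in males, dashed lines give the median of all genes (0.16 in males, 0.10 in females), and Nr2c2 is lowest in males while Nr2c2, Ppara and Esrrg lie near -1 in females.

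Nr2c2, which encodes the testicular receptor TR4, an orphan receptor that binds direct repeats also used by PPARs and RXRs, was the member with the clearest difference. Its TPM were 2.04, 2.40, 2.26 and 2.66 in WT males and 0.878, 1.08, 1.35 and 1.11 in KO males. Nr2c2 TPM in females were 2.28, 2.25, 2.80 and 3.90 in WT and 0.994, 0.928, 0.881 and 1.66 in KO mice. No KO mouse reached the level of any WT mouse of its sex. The log2 fold change was -0.83 (SE 0.14, adjusted p = 0.123) in males and -1.03 (SE 0.22, adjusted p = 0.231) in females. Over both sexes it was -0.93 (SE 0.13, adjusted p = 0.00632), which ranked 2 by p among the 12210 genes tested. The call held without any single mouse (adjusted p 0.00286 to 0.0234) and when library name prefixes, whose meaning is not stated, entered as a covariate (0.0286). Within prefixes the KO minus WT difference was -0.82 in males (prefix 9, 3 KO and 2 WT mice). In females it was -1.31 (prefix 8b, 1 KO and 3 WT mice) and -0.90 (prefix 10, 1 KO and 1 WT mouse). Without the 6 libraries rich in muscle markers the difference was -0.97 but did not pass (adjusted p = 0.102). Nr2c1, the related receptor TR2, had a mean of 3.58 TPM and did not pass in any comparison.

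Most of the Nr2c2 difference lay in the TPM assigned to a single transcript. The gene lies on chromosome 6, and GENCODE lists Nr2c2-201, of 7647 bases with a reading frame of 596 residues, and Nr2c2-205, of 2811 bases, classed as a target of nonsense-mediated decay with a frame of 501 residues. Every base of Nr2c2-205 is also exonic in Nr2c2-201, so short reads tell them apart by the splice junction below and by how far they reach along the gene. Nr2c2-205 leaves exon 11 at an earlier donor than the matching exon 13 of Nr2c2-201 and so lacks 38 bases. The TPM below are those that kallisto assigned to each transcript, and reads across this junction were not counted here. The spliced sequences across it are shown as a place where the transcripts differ, with the 38 bases in capitals (GRCm38, plus strand, chr6:92163191-92163258 joined to chr6:92164188-92164217 in Nr2c2-201):
Nr2c2-201: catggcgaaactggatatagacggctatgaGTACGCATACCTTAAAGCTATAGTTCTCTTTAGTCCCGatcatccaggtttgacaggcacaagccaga
Nr2c2-205: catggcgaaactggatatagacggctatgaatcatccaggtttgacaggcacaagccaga

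Nr2c2-205 TPM were 0.596, 1.25, 0.916 and 1.44 in WT males and 0, 0.0914, 0.283 and 0 in KO males. The same transcript had 0.866, 0.821, 1.06 and 1.52 TPM in WT females and 0.00923, 0, 0.0580 and 0.195 in KO females. It was thus near or at 0 in all KO mice and between 0.596 and 1.52 TPM in all WT mice. The exact permutation test gave p = 0.0286 in each sex, the smallest it can give, and adjusted p = 0.384 over the transcripts of members. Among 94 transcripts of members with a mean of at least 0.5 TPM it was the only one with every KO mouse below every WT mouse in both sexes, a pattern of 0.33% of all 32706 transcripts. In limma on single transcripts, which was chosen after the values were seen, its log2 fold change over both sexes was -1.42 (SE 0.17, adjusted p = 0.00129), and it ranked 16 by p. Such calls covered 0.997% of all transcripts. Thrb-201 was the other transcript of a member that passed (-1.05, SE 0.22, adjusted p = 0.0399).

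The remaining Nr2c2 transcripts differed less. Nr2c2-201 was 1.05 ± 0.175 TPM in WT and 0.876 ± 0.109 in KO males, with overlapping ranges. In females it was 1.19 ± 0.0159 TPM in WT and 0.790 ± 0.148 in KO mice, without overlap (SD, n = 4). The sum of all Nr2c2 transcripts other than Nr2c2-205 was 1.29 ± 0.131 TPM in WT against 1.01 ± 0.103 in KO males (exact p = 0.0286), and 1.74 ± 0.454 against 1.05 ± 0.284 in females (exact p = 0.0857). With protein-coding transcripts only, the log2 fold change of Nr2c2 over both sexes was -0.32 (adjusted p = 0.0525). Nr2c2 shares 4590 exonic bases with Mrps25, a gene of the mitochondrial ribosome on the opposite strand with a mean of 30.4 TPM. Mrps25 itself was 27.1 to 40.8 TPM in WT and 29.7 to 36.8 in KO males, and 20.04 to 32.2 and 27.6 to 33.6 in females (log2 fold change 0.13, adjusted p = 0.472 over both sexes).

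**Figure D3:**
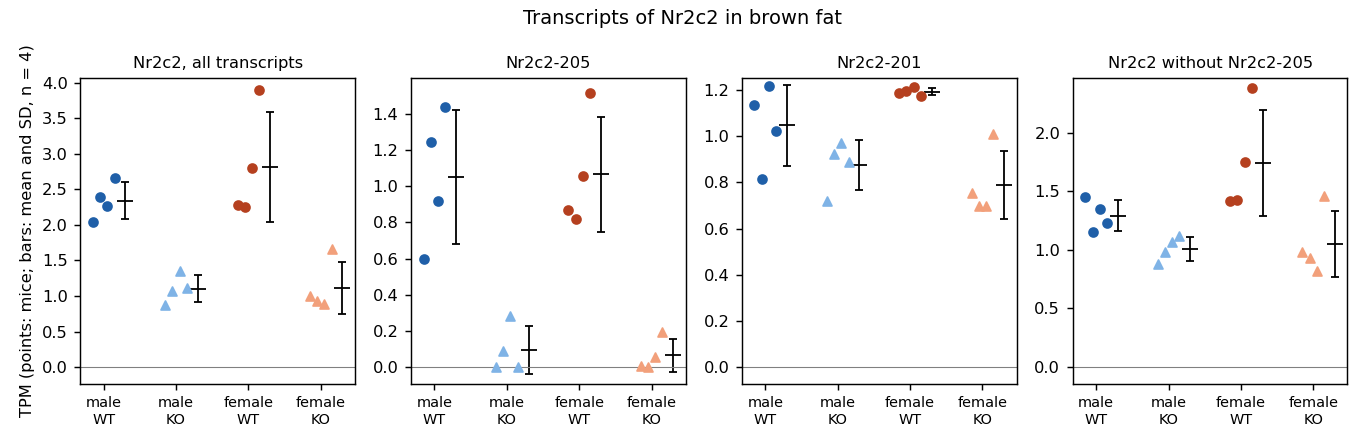
TPM of Nr2c2 and its transcripts in 4 mice per group (points), with the mean and SD beside them. The groups separate by genotype for all transcripts together and for Nr2c2-205, which lies between 0.596 and 1.52 TPM in WT mice and at most 0.283 in KO mice, while Nr2c2-201 overlaps between WT and KO males.

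Ppara, the receptor that drives fatty acid oxidation genes, was the other member to fall. TPM of Ppara were 41.7, 38.8, 51.8 and 64.4 in WT males and 29.3, 35.4, 38.2 and 46.3 in KO males, which overlap. Females had 67.5, 37.4, 63.2 and 52.3 in WT and 23.8, 34.8, 24.9 and 28.4 in KO mice, with every KO value below every WT value. Its fitted log2 fold change was -0.38 (SE 0.19, adjusted p = 0.3) in males and -0.95 (SE 0.21, adjusted p = 0.231) in females, and -0.67 (SE 0.15, adjusted p = 0.0313) over both. The difference between the sexes, male minus female effect, was 0.56 (SE 0.29, adjusted p = 0.404), so the larger female value was not shown to differ. Within prefixes the KO minus WT difference of Ppara was -0.53 in males (prefix 9, 3 KO and 2 WT mice). In females it was -0.99 (prefix 8b, 1 KO and 3 WT mice) and -1.48 (prefix 10, 1 KO and 1 WT mouse). The call was not firm. It was lost without any of 8 libraries in turn (male WT 1 and 3, male KO 1, 2 and 3, female WT 3, female KO 1 and 4, adjusted p 0.0525 to 0.0735), with the prefix as a covariate (0.0598) and without the 6 libraries rich in muscle markers (0.102). Both main Ppara transcripts followed the gene. In females Ppara-202 was 37.7 ± 8.46 TPM in WT and 17.9 ± 5.59 in KO mice, and Ppara-201 was 11.5 ± 4.27 and 4.004 ± 1.12, both without overlap (SD, n = 4, exact p = 0.0286 each, adjusted p = 0.384 over the transcripts of members).

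Pparg and Ppard did not pass the adjusted threshold in any comparison. Pparg, which specifies and maintains adipocytes, had 128, 129.6, 142 and 183 TPM in WT and 145, 176, 158 and 144 in KO males. Pparg in females was 166, 120.2, 132 and 106 in WT and 109, 152, 112 and 132 in KO mice, and the ranges overlapped in both sexes. Its log2 fold change was 0.11 in males (95% confidence interval -0.20 to 0.41) and -0.04 in females (-0.45 to 0.37). Ppard, the broadly expressed fatty acid sensor, was 5.99, 8.46, 8.04 and 9.30 TPM in WT males and 9.68, 10.6, 9.69 and 10.48 in KO males, without overlap. Ppard in females was 9.49, 6.37, 8.99 and 8.93 in WT and 9.01, 9.48, 8.00 and 9.36 in KO mice and overlapped. The log2 fold change in males was 0.35 (SE 0.13, adjusted p = 0.232).

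Of 20 PPAR target genes written down for this work, which include enzymes of fatty acid oxidation and lipid droplet proteins, 19 could be tested in females and for the mean effect and 18 in males. None passed the adjusted threshold, and the only one with an unadjusted p under 0.05 was Plin1, the perilipin of adipocyte droplets, in males (1 of 18 against 18.7% of all genes, log2 fold change 0.36, SE 0.13, adjusted p = 0.225). Their median log2 fold change was 0.05 in males and 0.07 in females, against 0.16 and 0.10 for all genes. For the mean effect 0 of 19 targets had an unadjusted p under 0.05, against 24% of all genes, and those of smallest p were Cpt1a, Plin2 and Cidec.

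Of the thyroid hormone receptor genes, Thrb had the lower level and Thra the higher. Thrb, the β receptor, was 5.75, 5.73, 5.52 and 6.35 TPM in WT males and 4.06, 4.89, 4.63 and 4.86 in KO males, with no overlap. In females Thrb was 7.08, 5.61, 7.13 and 7.09 in WT and 3.45, 6.32, 5.00 and 5.23 in KO mice, and a WT mouse, female WT 2, lay among the KO values. The log2 fold change was -0.31 (SE 0.09, adjusted p = 0.198) in males, -0.41 (SE 0.17, adjusted p = 0.272) in females and -0.36 (SE 0.10, adjusted p = 0.0546) over both sexes. The last passed the threshold in 5 of 27 alternatives, among them median-of-ratios scaling (adjusted p = 0.0197). Thrb-202, which gave 62.4% of the Thrb TPM, had -0.13 over both sexes (limma on single transcripts, SE 0.09, adjusted p = 0.508). It did not overlap between WT and KO males (3.53 ± 0.211 and 3.15 ± 0.0753 TPM). In females it did (3.73 ± 0.431 and 3.43 ± 0.538, SD, n = 4). Thrb-201, which gave 9.78% of the Thrb TPM, had -1.05 over both sexes. Thra, the main thyroid receptor gene by level, was 46.6, 51.0, 46.6 and 53.0 TPM in WT and 55.9, 62.2, 53.3 and 50.8 in KO males. For Thra the female values were 50.2, 37.6, 52.9 and 36.4 in WT and 40.5, 54.5, 37.5 and 37.2 in KO mice, which overlapped as in males. Its log2 fold change was 0.06 over both sexes (95% confidence interval -0.16 to 0.28). Of 7 thyroid hormone targets tested, none passed. Me1, the malic enzyme that supplies NADPH for lipid synthesis, was 1.15 higher on the log2 scale in KO males (adjusted p = 0.233) and had a log2 fold change of -1.18 in KO females (adjusted p = 0.231). The difference between these effects was 2.32 (SE 0.55, adjusted p = 0.215).

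Esrrg had the smallest p of all members in the test of a KO effect that differs between the sexes, although its adjusted p did not pass. It encodes ERRγ, an orphan activator of mitochondrial and thermogenic genes. Its TPM were 4.64, 2.67, 3.70 and 4.45 in WT and 3.73, 3.77, 4.91 and 4.01 in KO males, which overlap throughout. In females Esrrg was 5.50, 4.82, 5.42 and 4.11 in WT and 0.984, 3.36, 2.54 and 2.36 in KO mice, and all KO mice were lower. Its fitted log2 fold change was 0.09 (SE 0.17, adjusted p = 0.77) in males and -1.03 (SE 0.27, adjusted p = 0.231) in females, and the male minus female effect was 1.13 (SE 0.33, adjusted p = 0.215). Only 2 members, Esrrg and Rarb, had an unadjusted p under 0.05 in that test (6.90% of those tested against 14.2% of all genes), both above 0 as were 11.7% of all genes. None passed the adjusted threshold, as was so for 0% of all genes. Esrra, which encodes ERRα and is the most abundant ERR, was 51.1, 84.3, 68.3 and 70.4 TPM in WT and 86.6, 81.8, 67.1 and 67.0 in KO males. Esrra in females was 83.1, 48.6, 76.7 and 54.1 in WT and 67.4, 78.7, 53.5 and 61.1 in KO mice. The groups overlapped in both sexes, with log2 fold changes of 0.15 and 0.01.

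The 14 ERR targets tested, genes of the citrate cycle and respiratory chain, had a median log2 fold change of 0.03 in males and -0.05 in females and none passed. Cs, citrate synthase, had the smallest p in males (0.27, SE 0.11, adjusted p = 0.252). Of 13 coactivators none passed. Ppargc1a, the coactivator PGC-1α, had a log2 fold change of -0.31 in males (adjusted p = 0.246), while in females it was 34.6 TPM in KO 4 and 18.03 in WT 1, against 4.39 to 7.70 in the other mice. Ncoa2 was lower over both sexes (-0.48, SE 0.13, adjusted p = 0.0544).

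Among retinoid receptors, Rarb, a receptor gene that is itself induced by retinoic acid, had a lower mean in KO females without passing the adjusted threshold. Rarb TPM were 3.46, 3.19, 4.69 and 3.91 in WT and 3.82, 4.30, 5.74 and 3.37 in KO males. Females had Rarb at 2.40, 3.31, 4.55 and 3.87 in WT and 1.49, 3.19, 2.19 and 1.91 in KO mice, and these overlap. The log2 fold change was 0.15 (SE 0.17, adjusted p = 0.642) in males and -0.59 (SE 0.23, adjusted p = 0.263) in females, with a male minus female effect of 0.73 (SE 0.30, adjusted p = 0.28). Rarb shares 1793 exonic bases with Top2b on the opposite strand, a topoisomerase gene with a mean of 14.6 TPM, whose log2 fold change was 0.43 in males and -0.17 in females. Rarg and Rara had means of 7.85 and 2.76 TPM and did not pass. Of the 3 RXR genes, Rxra had a log2 fold change over both sexes of 0.19 (adjusted p = 0.162), and Rxrb and Rxrg had p above 0.05. Rxrg-202, a form of 340 residues, gave 98.0% of the Rxrg TPM. None of 6 retinoid targets and enzymes tested over both sexes passed, with Tgm2 at the smallest p (0.26, SE 0.08, adjusted p = 0.0851).

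**Figure D4:**
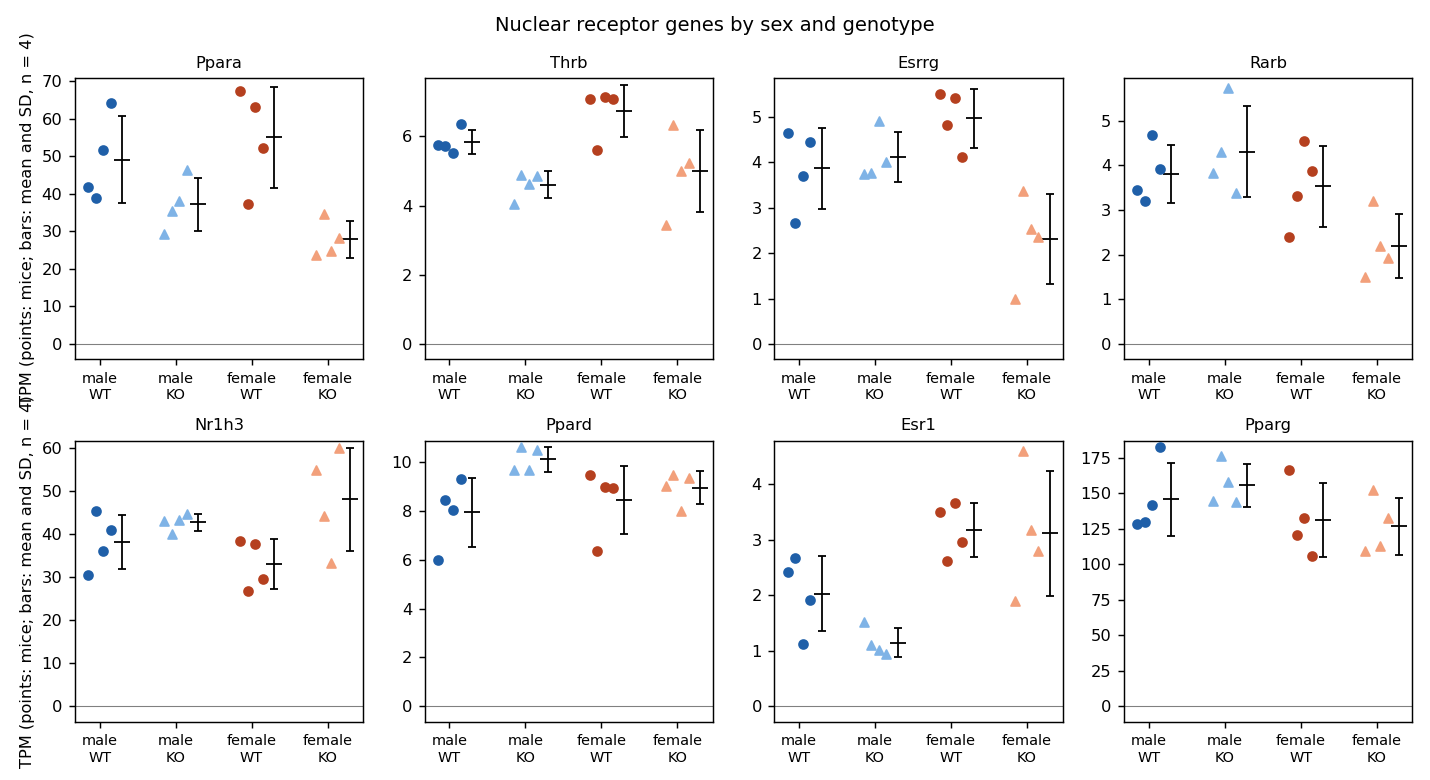
TPM of 8 members in 4 mice per group (points), with the mean and SD. Ppara and Esrrg are lower in every KO female than in every WT female, Thrb is lower in every KO male and Ppard higher in every KO male, and Pparg overlaps between genotypes in both sexes.

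LXRs sense oxysterols and control cholesterol efflux and lipid synthesis. Nr1h3, the LXRα gene, was 30.4, 45.2, 36.0 and 40.8 TPM in WT and 42.9, 39.9, 43.3 and 44.5 in KO males. Nr1h3 in females was 38.2, 26.7, 37.7 and 29.5 in WT and 54.8, 44.2, 33.1 and 59.8 in KO mice, where a single KO value, 33.1, lay among the WT values. Its fitted log2 fold change was 0.17 (SE 0.13, adjusted p = 0.459) in males and 0.51 (SE 0.21, adjusted p = 0.27) in females, and 0.34 (SE 0.13, adjusted p = 0.12) over both. Nr1h2, the LXRβ gene, was 28.9, 46.4, 31.7 and 37.2 TPM in WT and 36.6, 42.5, 37.3 and 35.3 in KO males. Its female values were 45.1, 25.4, 37.7 and 37.8 in WT and 66.1, 40.7, 31.5 and 53.0 in KO mice, with overlap in both sexes (log2 fold change 0.09 in males and 0.36 in females, adjusted p = 0.752 and 0.459).

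Nr1h3 is also expressed by macrophages, whose markers differed in KO males. Of 9 macrophage markers tested in males, 8 had an unadjusted p under 0.05 and were higher (17.7% of all genes were), with a median log2 fold change of 0.98. In females 1 of 8 did (11.6% of all genes), with a median of 0.16. The KO effect on Nr1h3, male minus female, was -0.34 (SE 0.25, adjusted p = 0.558), and the part of macrophages in it was not tested. In bulk tissue, fewer cells of a type and less RNA per cell cannot be told apart. Of 9 LXR targets tested none passed. For the mean effect 8 were above 0 and 1, Abca1, below, with a median log2 fold change of 0.23 against 0.13 for all genes. Abca1, the cholesterol exporter, had a log2 fold change of -0.50 in females, Abcg1, a second exporter, had 0.55, and Scd1, the stearoyl-CoA desaturase, had -1.13. Scd1 was 1.30 higher on the log2 scale in KO males, and the difference between these effects was 2.43 (SE 0.70, adjusted p = 0.215).

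The steroid receptors held a lower rank apart from Nr3c1. Esr1, the estrogen receptor α, was 2.42, 2.67, 1.13 and 1.91 TPM in WT males and 1.52, 1.11, 1.03 and 0.937 in KO males, where the single WT value of 1.13 lay among the KO values. In females Esr1 was 3.50, 2.61, 3.67 and 2.97 in WT and 1.90, 4.60, 3.18 and 2.79 in KO mice, which overlap. The log2 fold change was -0.59 (SE 0.23, adjusted p = 0.236) in males and -0.07 (SE 0.22, adjusted p = 0.876) in females, and the male minus female effect was -0.52 (SE 0.33, adjusted p = 0.487). Between WT males and WT females the difference, male minus female, was -0.58 (SE 0.22, adjusted p = 0.99994), with the same low WT male as the lowest value. Fibroblast and progenitor markers, a cell group in which Esr1 is found, summed to 181 to 292 TPM in WT males and 318 to 342 in KO males, so they were higher where Esr1 was lower. Their part in the Esr1 values was not tested.

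Nr3c1 had a mean of 11.4 TPM with a log2 fold change of -0.07 in males and -0.20 in females, and Nr3c2, the mineralocorticoid receptor, had a mean of 1.76 TPM. Neither passed the adjusted threshold in any comparison. Fkbp5, a chaperone induced by glucocorticoids, rose over both sexes (0.84, SE 0.21, adjusted p = 0.0481). It was the only gene past the threshold among 11 glucocorticoid targets and enzymes tested, against 2.95% of all genes. Fkbp5 TPM were 0.780, 1.26, 1.10 and 2.82 in WT and 2.81, 2.46, 2.97 and 2.59 in KO males. Fkbp5 in females was 1.62, 0.938, 0.945 and 0.913 in WT and 2.68, 1.29, 2.11 and 4.43 in KO mice. Its call held in 9 of 26 alternatives and was lost without any of 11 libraries in turn (male WT 1 and 3, all male KO, female WT 2, 3 and 4, female KO 1 and 4, adjusted p up to 0.102) and without the muscle-rich libraries (0.338). Tsc22d3, the glucocorticoid-induced leucine zipper, was higher by 0.52 (SE 0.16, adjusted p = 0.0719).

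REV-ERB genes varied widely between mice of both genotypes. Nr1d1, which encodes REV-ERBα, was 63.5, 60.5, 77.8 and 80.3 TPM in WT and 42.0, 73.4, 108 and 76.6 in KO males. In females Nr1d1 was 55.2, 22.2, 29.4 and 20.3 in WT and 11.6, 74.1, 16.7 and 35.0 in KO mice. The highest WT female, at 55.2 TPM, lay below the lowest WT male, at 60.5. KO and WT overlapped in both sexes (log2 fold change 0.02 in males and -0.13 in females). Between WT males and WT females the difference, male minus female, was 1.24 (SE 0.29, adjusted p = 0.878), with 3 members (10.7% of 28) at an unadjusted p under 0.05 against 3.43% of all genes. Nr1d1 and Nr1d2 were higher in males (2.18% of all genes) and Esr1 lower (1.25%). The adjusted threshold was passed by 0 members and by 0.0664% of all genes. Nr1d1 was the only member whose WT males and females did not overlap, against 1.92% of all genes in either direction and 1.2% higher in males, and without female WT 1 its difference was 1.55 with an adjusted p of 0.0326. Nr1d2, the REV-ERBβ gene, was 9.98, 11.7, 16.5 and 19.6 TPM in WT and 7.44, 10.9, 17.2 and 15.9 in KO males. Nr1d2 had 11.2, 7.10, 7.30 and 7.46 TPM in WT and 4.51, 9.85, 5.07 and 12.8 in KO females, and the WT sex difference was 0.75 (SE 0.23, adjusted p = 0.99994). The WT males and WT females shared no library name prefix, so prefix and sex cannot be told apart there.

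Other clock genes also varied between mice. Of 12 clock output genes and REV-ERB or ROR targets tested between WT males and WT females, 7 had an unadjusted p under 0.05 (3.43% of all genes did), 4 higher and 3 lower in males, and 1 passed the adjusted threshold. This was Dbp, an output gene with a peak close to that of Nr1d1 in many tissues (2.52, SE 0.29, adjusted p = 0.0152, but 0.0658, 0.0618 and 0.0730 without female WT 2, 3 and 4 in turn). Dbp TPM were 13.7, 15.03, 29.4 and 32.6 in WT and 6.62, 14.8, 42.0 and 20.9 in KO males, and 4.02, 2.56, 3.88 and 2.83 in WT and 1.87, 17.5, 3.53 and 6.42 in KO females. Arntl, the clock activator gene repressed by REV-ERBs, was lower in WT males than in WT females (-1.13, SE 0.24, adjusted p = 0.681). Arntl values were 2.82, 4.45, 1.73 and 1.79 TPM in WT males and 6.04, 6.40, 6.13 and 6.004 in WT females. Female KO 2 had values within the ranges of the WT males, with Nr1d1 at 74.1, Dbp at 17.5 and Arntl at 3.52 TPM. Female KO 1 lay at the other end, with 11.6, 1.87 and 8.80. Male KO 1 had the lowest male Nr1d1 (42.0), the lowest male Dbp (6.62) and the highest male Arntl (6.44). Female KO 2 shared the library name prefix 5 with male WT 1 and 2, and male KO 1 shared prefix 10 with female WT 1 and female KO 1. Female KO 4 shared prefix 9 with the remaining males, but had Dbp at 6.42 TPM against 14.8 to 42.0 in those males. Time of collection was not given in the sources used here, and neither its part nor that of the prefix was tested.

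**Figure D5:**
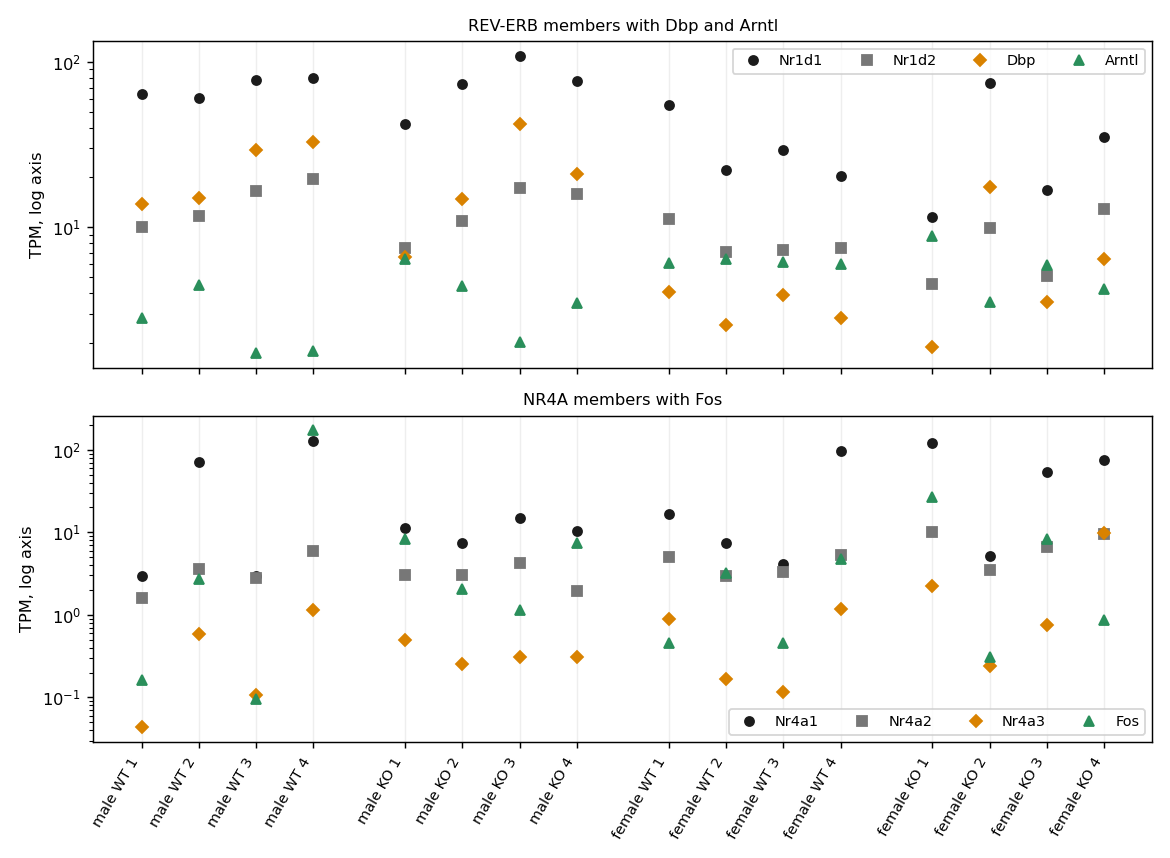
TPM (log axis) of the REV-ERB genes with Dbp and Arntl (upper panel) and of the NR4A genes with Fos (lower panel) in each of the 16 mice. Nr1d1 and Dbp are highest in male KO 3 (108 and 42.0 TPM) and also high in the WT males and in female KO 2. They are low in female KO 1, where Arntl is high. Nr4a1 ranges from 2.94 to 128 TPM within WT males alone.

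NR4A genes, whose receptors act without a known hormone and whose mRNA rises within a short time of cAMP or adrenergic signals, included Nr4a3 and Nr4a1, the members with the widest fold range among those above 0 in every mouse. Nr4a1 was 2.97, 71.2, 2.94 and 128 TPM in WT and 11.3, 7.32, 14.8 and 10.2 in KO males. Nr4a1 in females was 16.5, 7.51, 4.13 and 96.6 in WT and 119, 5.12, 54.2 and 74.2 in KO mice. Each group but the KO males held both low mice, under 17 TPM, and mice above 50. The 95% confidence interval of the log2 fold change ran from -3.35 to 1.93 in males and from -1.14 to 3.89 in females, so genotype effects of several fold in either direction were not detectable. Nr4a2 ranged from 1.61 to 9.98 TPM and Nr4a3 from 0.0433 to 9.71. The mice with the most Nr4a1 were male WT 4, female KO 1, female WT 4, female KO 4 and male WT 2. Of the immediate early genes, Fos, a factor induced by many stimuli, was 171 TPM in male WT 4 and 27.1 in female KO 1. Yet it was 4.69 in female WT 4, 0.857 in female KO 4 and 2.71 in male WT 2, so Fos did not follow Nr4a1 in every mouse. Dusp1, another of these genes, was 118 TPM in male WT 4, 103 in female KO 1 and 131 in female WT 4. It was 44.4 in female KO 4 and 68.0 in male WT 2, against 14.2 to 89.5 in the remaining mice. Female KO 4 was instead high in Nr4a3 (9.71 TPM), Ppargc1a (34.6), Per2 (14.7) and Atf3 (13.5). No immediate early gene passed the adjusted threshold in any comparison.

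The upstream sequences of the 3 NR4A genes are shown because TGACG, the core of the cAMP response element, was dense in them. Sequences are the 250 bases before the RefSeq start (GRCm38.p6), 5′ to 3′ on the strand of the gene, with TGACG and its reverse complement CGTCA in capitals. They lie at chr15:101266596-101266845 (plus strand) for Nr4a1, chr2:57124004-57124253 (minus) for Nr4a2 and chr4:48045055-48045304 (plus) for Nr4a3:
Nr4a1: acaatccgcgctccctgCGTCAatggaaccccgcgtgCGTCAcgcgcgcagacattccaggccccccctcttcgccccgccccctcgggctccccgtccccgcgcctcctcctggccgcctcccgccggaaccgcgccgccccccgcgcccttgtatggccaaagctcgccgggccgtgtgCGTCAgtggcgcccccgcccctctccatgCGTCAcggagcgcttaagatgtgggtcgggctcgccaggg
Nr4a2: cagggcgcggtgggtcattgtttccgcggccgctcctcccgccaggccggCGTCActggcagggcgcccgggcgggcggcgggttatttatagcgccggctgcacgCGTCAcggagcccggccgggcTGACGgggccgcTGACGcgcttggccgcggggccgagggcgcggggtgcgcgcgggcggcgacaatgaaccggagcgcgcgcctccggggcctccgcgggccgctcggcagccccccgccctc
Nr4a3: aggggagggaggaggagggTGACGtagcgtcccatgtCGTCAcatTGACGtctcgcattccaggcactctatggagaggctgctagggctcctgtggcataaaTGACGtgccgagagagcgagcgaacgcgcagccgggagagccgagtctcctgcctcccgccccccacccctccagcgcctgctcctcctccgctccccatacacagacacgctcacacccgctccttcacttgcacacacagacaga

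Each of these windows held 4 matches, with TGACG searched on both strands. Of 32851 promoters of the same length, 17.8% held at least 1 match, and 45 (0.137%) held 4 or more. RefSeq promoters were found for 35 of the 37 members, 54 windows in all, of which 12 held at least 1 match (22.2%) and these 3 alone held 4 or more. The full palindrome TGACGTCA was in 0 of the 54 member windows and in 1.55% of all. A match is a stretch of letters and not a measured site.

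The COUP-TF genes, orphan receptors that are also strong in vascular and progenitor cells, were of low to middle level. Nr2f6 had a mean of 15.4 TPM, Nr2f2 4.54 and Nr2f1 0.891. Nr2f2, which marks venous endothelium, had a log2 fold change over both sexes of 0.38 (SE 0.16, adjusted p = 0.162). Beside it, 8 of 8 endothelial markers tested had an unadjusted p under 0.05 and were higher over both sexes (21.4% of all genes were), 2 of them past the adjusted threshold (Cdh5 and Tie1, with 2.95% of all genes past it), with a median log2 fold change of 0.54. The part of endothelial cells in the Nr2f2 value was not tested. Nr6a1 and Rora had means of 1.23 and 1.60 TPM and did not pass.

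The share of the leading transcript in its gene was compared for 30 members in 58 tests. KO and WT mice did not overlap in 4 of them (6.90%, against 6.54% of such tests over all genes), and none passed after adjustment (smallest adjusted p = 0.414, exact permutation tests). Those 4 were Nr2c2-201 in males (45.4% of Nr2c2 in WT and 80.0% in KO) and females (44.7% and 72.8%), Nr1d2-201 in females (73.1% and 84.6%) and Nr3c1-204 in females (87.9% and 96.9%). The other transcripts of Nr3c1 included Nr3c1-203, which was 0.502 to 1.22 TPM in WT females and listed at 0 in all 4 KO females, but which spanned 0 to 1.42 TPM in males. Thrb-201 was likewise 0.564 to 1.72 TPM in WT and 0 to 0.125 in KO females, but overlapped in males (0.157 to 1.36 in WT and 0 to 0.417 in KO).

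The lowest members were Nr2f1, Esrrb, Vdr, Nr5a2, Nr1i3, Esr2, Nr0b2 and Pgr, with means under 1 TPM. Pgr, the progesterone receptor, was listed at 0 in 12 of 16 libraries and Nr0b2, the corepressor SHP, in 14. Nr1i3, the xenobiotic receptor CAR, shares 3304 exonic bases with Tomm40l on the opposite strand, and its mean of 0.193 TPM stands beside 36.3 for that gene. Vdr, the vitamin D receptor, ranged from 0.137 to 1.53 TPM.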

How the data were processed

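The values are transcript-level TPM that the authors deposited, made with kallisto 0.46.2 from single-end reads of stranded mRNA libraries, with GRCm39 as the build in the submitters' processing notes. The annotation release and the strand setting are not given in the sources used here, and TPM keeps no depth, so no counting interval is given. Of 137438 identifiers, 135051 matched GENCODE mouse release 21 without their version and were summed by symbol. Where the libraries compared gave a gene 1 TPM or more on average, it was tested on log2(TPM + 0.5) with limma 3.58.1 (R 4.3.3, eBayes with a trend, two-sided, Benjamini-Hochberg over all genes, threshold 0.05), which understates changes of low genes. The authors used DESeq2, which needs counts and was not run here. Groups came from the labels, 4 mice each. Single values and transcript shares were compared with exact two-sided permutation tests (smallest p 0.0286). Per-mouse values are given for the 8 members with the highest mean, the members past the threshold or, failing that, up to 5 with the smallest p under 0.05 in each comparison, and Pparg, Ppara and Esr1. Nr2c2-205, the other transcripts, Nr2f2 and the non-member genes shown by mouse were chosen after their values were seen. Members and lists were chosen with earlier results of these data known. Alternatives (scaling, pseudocount, TPM minimum, covariates, single libraries left out) are in the closing section. No library equalled another, limma was tested on simulated data, and promoters came from RefSeq (GRCm38.p6). Pathway and cell type lists were written from general knowledge, and Spot14, E4bp4 and Sts were not matched.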

Additional observations from a re-analysis of the deposited data

Results flagged for a closer look

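In 5 of 116 groups of 4 mice (4.31%, where chance gives about 1 in 20), a mouse stood apart from the rest of its group by Dixon's test. Nr4a1 was 96.6 TPM in female WT 4 against 4.13 to 16.5 in the other WT females. Nr1d2 was 11.2 TPM in female WT 1 against 7.10 to 7.46. Thrb was 5.61 TPM in female WT 2 against 7.08 to 7.13. Nr2c2 was 1.66 TPM in female KO 4 against 0.881 to 0.994 in the other KO females. Rora was 1.35 TPM in male WT 1 against 1.58 to 1.63.

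In the test of a KO effect that differs between the sexes, 2 members had an unadjusted p under 0.05 (6.90% of those tested against 14.2% of all genes). Esrrg had a male minus female effect of 1.13 on the log2 scale (limma, adjusted p = 0.215, range over the alternatives 0.0869 to 0.488), with all 4 KO females below all 4 WT females. Rarb had 0.73 (adjusted p = 0.28, range 0.115 to 0.539), with 3 of 4 KO females below the WT females. Neither passed the adjusted threshold.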

How the results depend on the processing

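TPM keep no depth, so the spread between 4 mice per group limits each value. The log2 fold change of Nr2c2 over both sexes passed in 24 of 26 alternatives, not with protein-coding transcripts only (-0.32, adjusted p = 0.0525) nor without libraries rich in muscle markers (-0.97, 0.102), both chosen after the data were seen. Ppara passed in 16 of 27, Thrb in 5 of 27 and Nr1h3 in 1 of 27 (without female KO 3, adjusted p = 0.038). Members past the adjusted threshold for the mean effect numbered 2, but 1 with no TPM minimum, with a mean TPM of at least 5 and with the prefix covariate, 0 without the muscle-rich libraries, and 1 to 4 with single libraries left out (4 without female KO 3). Over all genes this count was 360, 54, 177, 12 and 9 in those 4 settings, and 31 (without male KO 3) to 1055 (without male WT 2) with single libraries left out. In WT mice the sex difference gave 0 members, and 0 to 1 with single libraries left out (Nr1d1 without female WT 1, where 11 of 12038 genes passed). Transcript shares without overlap numbered 4 of 58 (6.90%, against 6.54% of such tests over all genes). They were 2 with protein-coding transcripts only, and 4 to 8 with single libraries left out (8 without male KO 4, 7 without female KO 2). Pparg in males (0.11) turned to -0.064 with median-of-ratios scaling, -0.00055 without mitochondrial transcripts, -0.022 with the prefix covariate and within prefix 9, and -0.018 without the muscle-rich libraries. Pparg in females (-0.04) ranged from -0.14 to 0.076 with single libraries left out. Esr1 in females (-0.07) was 0.051 within prefix 8b (1 KO and 3 WT mice) and ranged from -0.25 to 0.11 with single libraries left out. The cause of these changes was not tested. Members with an unadjusted p under 0.05 ranged from 2 to 8 in males, 2 to 9 in females and 5 to 12 for the mean effect. The counts over all genes moved too. Without male KO 2 (2 members), 1138 of 12141 genes were higher and 122 lower. Without female KO 2 (9 members), 1430 of 12148 were higher and 996 lower. For the mean effect without female KO 3 (12 members), 3242 of 12200 were higher and 311 lower. Same-numbered WT and KO mice correlated at -0.08 to 0.35 in males and -0.12 to 0.15 in females. Differently numbered mice correlated at -0.30 to 0.28 in males and -0.31 to 0.44 in females. With 4 mice per group these values cannot decide whether the numbers pair mice. With the replicate block 2 members still passed for the mean effect (Nr2c2 adjusted p = 0.0131, Ppara 0.0387), beside 522 of 12210 genes. In males 8 members in place of 4 then had an unadjusted p under 0.05, 4 higher and 4 lower. Of the 12177 genes tested there, 2534 were higher and 165 lower. The prefix covariate could not be fitted to the sex difference in WT mice.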
